A study of Mus musculus with 14 samples.

Results

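The 4 *Sall* genes, *Sall1* to *Sall4*, and *Zbtb16* were followed in the transcriptome of early mouse forelimb buds. They were taken as the rows of the count tables whose gene symbol equals one of these 5 names, of 23284 genes in all. All 5 were found, and all passed the filter on low values. The RNA-seq compared buds of wild-type and Smad4Δ/Δc embryos at 30 somites (E10.0) and at 35 somites (E10.5), with 3 wild-type and 4 mutant embryos per stage. Each replicate was the forelimb pair of 1 embryo of the NMRI strain. The mutants carried an inherited null allele of *Smad4*, the shared mediator of BMP and TGFβ signals, and a floxed allele that the *Prx1*-Cre transgene recombines in limb mesenchyme, so that ectoderm, vessels, blood and immigrating muscle precursors kept 1 copy that can function. The labels list the same Cre transgene for the wild-type embryos, which had no *Smad4* deletion. In bulk buds, fewer cells of a type and less RNA per cell cannot be told apart.

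SALL proteins, the vertebrate relatives of *Drosophila* Spalt, are multi-zinc-finger transcription factors of the nucleus that act largely as repressors and recruit the NuRD complex, which joins histone deacetylases to a chromatin remodeler. *Sall4* is a target of TBX5 in the forelimb and acts in limb progenitors, and human mutations in *SALL4* or *SALL1* cause syndromes with defects of the radius or thumb. *Zbtb16* encodes PLZF, a BTB zinc finger repressor that works through histone deacetylase co-repressors and is known in limb buds for patterning the skeleton and restraining *Hox* genes.

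Start-site windows of RefSeq (GRCm38.p6, 250 bases before to 50 bases after a start) were matched by symbol for 2 members, *Sall1* with 3 windows and *Sall2* with 2. These 2 genes are shown because the table held windows for them, and they are also the member whose level varied most over the 14 embryos and the one whose level varied least. The SMAD box CAGAC, a short motif that SMAD proteins bind, was searched on both strands (GTCTG on the other), as was GGCGCC, a GC-rich SMAD motif that reads alike on both. These 2 motifs do not overlap each other in the windows printed. The first *Sall1* window holds 1 SMAD box, in capitals, and no GGCGCC. Its other 2 windows hold no SMAD box and 1 GGCGCC each, and the *Sall2* windows hold neither motif. Of all 32851 windows in the table, 49.6% hold a SMAD box and 11.9% GGCGCC. The letters describe the windows only, and counts per gene do not tell which start was used. The windows, written 5′ to 3′ on the strand of the gene, are chr8:89044113-89044412 (minus strand) with a GC content of 57.3% and chr14:52328621-52328920 (minus strand) with 30.3%.
Sall1: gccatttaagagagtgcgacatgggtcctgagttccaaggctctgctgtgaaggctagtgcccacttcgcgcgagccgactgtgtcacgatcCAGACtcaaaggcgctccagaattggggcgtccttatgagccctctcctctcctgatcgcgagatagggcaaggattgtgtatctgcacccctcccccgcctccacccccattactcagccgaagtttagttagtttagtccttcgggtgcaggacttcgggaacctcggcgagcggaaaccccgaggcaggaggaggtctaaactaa
Sall2: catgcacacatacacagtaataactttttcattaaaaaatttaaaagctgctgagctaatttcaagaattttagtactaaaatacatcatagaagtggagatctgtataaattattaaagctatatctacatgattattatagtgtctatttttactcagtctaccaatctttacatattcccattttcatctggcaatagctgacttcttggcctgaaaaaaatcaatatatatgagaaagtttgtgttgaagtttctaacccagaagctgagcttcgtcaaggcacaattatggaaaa

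In mm9, the genome build of the counts, all 5 are protein-coding genes on the minus strand. *Sall1* (chromosome 8, 91551147 to 91568061) has 4 exons, *Sall2* (chromosome 14, 52930847 to 52948437) at most 2, *Sall3* (chromosome 18, 81163115 to 81183317) 4 and *Sall4* (chromosome 2, 168573832 to 168593443) at most 4 per transcript. *Zbtb16* (chromosome 9, 48462416 to 48644050) spans 181635 bases with 7 exons. *Sall4* alone overlaps another annotated gene, the lincRNA *Gm14261* on the opposite strand (chromosome 2, 168591643 to 168593608). *Gm14261* was not analysed here, and the library type was unstranded, so that its reads cannot be told from those of *Sall4*.

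Between 34066930 and 61691258 reads were counted on genes per embryo, and each member had between 1152 and 6169 reads. Counting alone then gives a relative error of 2.95% at the lowest and 1.27% at the highest count, below the SD between embryos of each gene in each group. Expression of *Smad4* fell from 161 ± 8.43 CPM (counts per 1000000 reads on genes after TMM scaling, SD, n=3) in wild type to 39.8 ± 4.19 CPM (SD, n=4) in mutants at E10.0, and from 166 ± 2.27 to 37.0 ± 3.43 CPM at E10.5, as the labels have it. Mutant embryos 4 and 5 of both stages stood apart. *Rn45s*, a ribosomal RNA precursor, took 1.72% to 8.05% of their reads, against 0.151% to 0.478% in the other 10 embryos. The other 2 mutants of each stage lay in or near the wild-type range, so that genotypes can also be compared without embryos 4 and 5. Values without them are given beside many of the comparisons of the 5 genes between genotypes and between stages. For the interaction of stage and genotype, only values whose sign turned are given, in the last section. Within embryos 4 and 5 themselves, this feature and the genotype cannot be told apart. The summed level of the 6 limb mesenchyme markers was lower in mutants, at 874 to 1014 CPM against 1074 to 1224 CPM at E10.0 and 983 to 1086 CPM against 1261 to 1320 CPM at E10.5. Most of this sum was *Prrx1*, with a mean of 601 CPM in mutants and 733 CPM in wild type at E10.0. *Fgf10* alone of the 6 had a higher mean in mutants at E10.0, at 62.2 against 57.8 CPM. At E10.5 all 6 had lower means in mutants, with *Tbx5* close to wild type at 132 against 136 CPM. Neural tube markers stayed at or under 0.570 CPM in sum in every embryo.

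All 5 genes were expressed in every embryo, and *Sall2* was the most abundant. Levels of different genes were compared per kilobase of exon. In wild type at E10.0, *Sall2* had 19.7 ± 1.39 CPM per kb (SD, n=3), followed by *Sall4* with 11.0 ± 0.790, *Sall1* with 9.40 ± 0.600, *Zbtb16* with 7.41 ± 0.382 and *Sall3* with 4.47 ± 0.260 CPM per kb. Of the neighbours in this order, *Sall4* and *Sall1* had overlapping ranges, and the other neighbours did not. The same order held in the E10.0 mutants, where *Sall1* also overlapped *Zbtb16*. At E10.5 *Sall1* stood second in both genotypes, with 15.7 ± 0.515 CPM per kb in wild type (n=3) and 19.0 ± 0.717 in mutants (n=4). *Sall4* then came after *Sall1* with 7.39 ± 1.28 and 7.55 ± 0.379 CPM per kb, and overlapped *Zbtb16*, which in turn overlapped *Sall3*. The order was unchanged when the longest transcript replaced the exon union as the length.

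**Figure D1:**
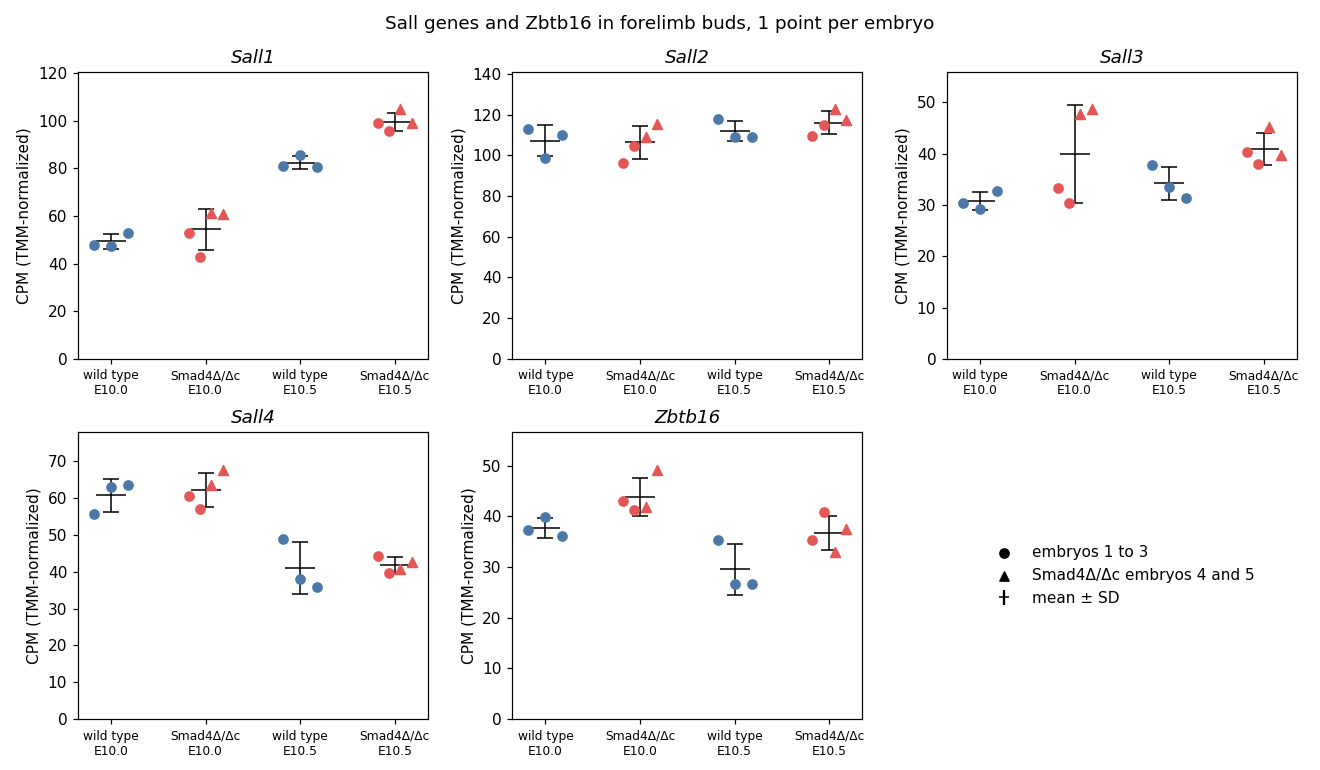
TMM-normalized CPM (vertical axis, from 0) of the 5 genes in each of the 14 embryos, with the group mean and SD as bars. *Sall1* lies between 80.5 and 105 CPM in the 7 E10.5 embryos and between 42.7 and 61.3 CPM in the 7 E10.0 embryos, while *Sall4* runs the other way.

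The first question was how the 5 genes change as the bud grows from E10.0 to E10.5. In wild-type buds *Sall1* rose 1.67-fold, while *Sall4* and *Zbtb16* fell to 0.674 and 0.781 of their E10.0 levels. *Sall2* and *Sall3* did not pass the test. Thus 3 of the 5 members were called, 1 up and 2 down, where 10.1% of the 12393 genes tested were called (5.39% up and 4.74% down). A call needed both an FDR not above 0.1 by edgeR's exact test and a change of 1.2-fold or more. In mutant buds *Sall1* rose 1.83-fold and *Sall4* fell to 0.672 of its level, so that 2 of the 5 were called, where 19.2% of all genes were called (10.8% up and 8.4% down). The summed level of 3 macrophage markers was also higher at E10.5, at 8.52 to 9.91 CPM against 1.72 to 3.93 CPM in wild type and 8.66 to 15.5 CPM against 4.92 to 6.42 CPM in mutants, and its part in these changes was not tested.

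*Sall1*, a regulator of distal limb and kidney development, had 47.7, 47.4 and 53.0 CPM in wild-type embryos 1, 2 and 3 at E10.0 and 81.0, 85.4 and 80.5 CPM in the 3 wild-type embryos at E10.5. The mutant embryos 1, 3, 4 and 5 had 52.7, 42.7, 61.3 and 60.8 CPM at E10.0, and the mutant embryos 1, 2, 4 and 5 had 99.0, 95.7, 105 and 98.9 CPM at E10.5. Every E10.5 embryo was above every E10.0 embryo, in both genotypes. The rise was 0.74 on the log2 scale in wild type (SE 0.0578, adjusted *P*=2.13e-08) and 0.87 in mutants (SE 0.123, adjusted *P*=1.81e-16). Without mutant embryos 4 and 5, the log2 change in mutants was 1.04.

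*Sall4*, the forelimb target of TBX5, had 55.7, 63.0 and 63.4 CPM in the wild-type embryos at E10.0 and 49.0, 38.0 and 35.7 CPM at E10.5. In the mutants it had 60.5, 57.1, 63.6 and 67.7 CPM at E10.0 and 44.3, 39.6, 40.6 and 42.6 CPM at E10.5. Stages did not overlap in either genotype, and among the E10.5 embryos wild-type embryo 1 was the nearest to the earlier stage. The log2 change was −0.57 in wild type (SE 0.149, adjusted *P*=4.45e-05) and −0.57 in mutants (SE 0.0626, adjusted *P*=3.11e-07). It was −0.48 in mutants without embryos 4 and 5 (adjusted *P*=0.00489).

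*Zbtb16* had 37.4, 39.9 and 36.1 CPM in the wild-type embryos at E10.0 and 35.3, 26.7 and 26.6 CPM at E10.5. The mutants had 43.0, 41.3, 41.8 and 49.3 CPM at E10.0 and 35.3, 41.0, 33.0 and 37.5 CPM at E10.5. In both genotypes all E10.5 embryos were below all E10.0 embryos, but 1 embryo of each genotype at E10.5 came close to the E10.0 range. These were wild-type embryo 1 (35.3 against at least 36.1 CPM) and mutant embryo 2 (41.0 against at least 41.3 CPM). The log2 change of −0.36 in wild type (SE 0.137) had an adjusted *P* of 0.0472. This call was lost without wild-type embryo 2 at E10.0 (0.27), without wild-type embryo 2 at E10.5 (0.261) or without wild-type embryo 3 at E10.5 (0.379), values which are adjusted *P* of the same test. In mutants the log2 change was −0.25 (SE 0.0865, adjusted *P*=0.0697), and *Zbtb16* was not called because the fold change was under 1.2. It was −0.14 without mutant embryos 4 and 5 (adjusted *P*=0.571), and it was called without mutant embryo 3 (adjusted *P*=0.0822) or 4 (0.0727) of E10.0 or mutant embryo 2 of E10.5 (0.0454).

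*Sall2*, the most divergent member of the family, had 113, 98.6 and 110 CPM in the wild-type embryos at E10.0 and 118, 109 and 109 CPM at E10.5. The mutants had 96.0, 105, 109 and 116 CPM at E10.0 and 109, 115, 123 and 117 CPM at E10.5. All 4 groups overlapped, and the SD of log2 levels over the 14 embryos was 0.0960, against 0.452 for *Sall1*. The log2 change between stages was 0.06 in wild type (adjusted *P*=0.753) and 0.13 in mutants (adjusted *P*=0.283).

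*Sall3*, which is closely related to *Sall1*, had 30.4, 29.2 and 32.7 CPM in the wild-type embryos at E10.0 and 37.7, 33.4 and 31.4 CPM at E10.5. In the mutants it had 33.3, 30.3, 47.7 and 48.6 CPM at E10.0 and 40.3, 38.0, 45.3 and 39.7 CPM at E10.5. The E10.0 mutants fell into a pair near the wild-type range and a pair, embryos 4 and 5, above every other embryo in the data. The log2 change between stages was 0.15 in wild type (adjusted *P*=0.615) and 0.03 in mutants (adjusted *P*=0.914). Without mutant embryos 4 and 5 it became 0.31 in mutants and was called (adjusted *P*=0.0538).

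**Figure D2:**
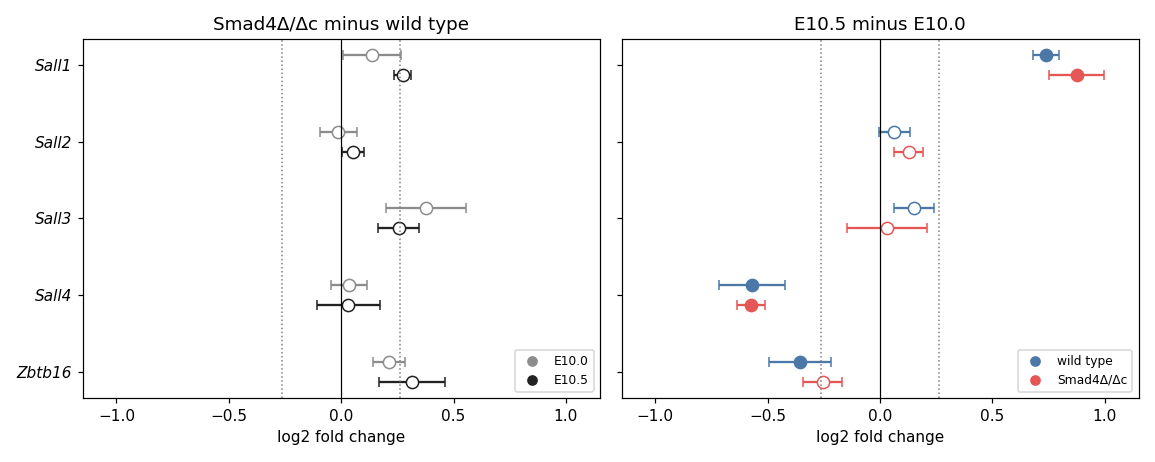
Log2 fold change with SE (horizontal axis) of the 5 genes between genotypes at each stage (left) and between stages in each genotype (right), filled where called and open where not, with dotted lines at a 1.2-fold change. Filled points are *Sall1*, *Sall4* and *Zbtb16* in wild type and *Sall1* and *Sall4* in mutants, all between stages, and no point between genotypes is filled.

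The second question was whether loss of *Smad4* in the mesenchyme changes the 5 genes. None was called at either stage by edgeR's exact test. At E10.0, 0 of 5 were called where 6.61% of all tested genes were, and 1 of them, *Sall3*, had an unadjusted *P* under 0.05. At E10.5, 0 of 5 were called where 3.73% of all genes were, and *Sall1* and *Zbtb16* had an unadjusted *P* under 0.05. The quasi-likelihood test also called 0 at either stage, where it called 4.85% and 2.75% of all genes. DESeq2 called 1 at each, *Sall3* at E10.0 (adjusted *P*=0.0824) and *Zbtb16* at E10.5 (adjusted *P*=0.0863). Of all genes it called 8.03% and 4.09%.

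*Sall3* had the largest difference between genotypes of the 5 at E10.0. Its mean was 30.8 ± 1.79 CPM in the 3 wild-type embryos (SD) and 40.0 ± 9.53 CPM in the 4 mutants, and the log2 change was 0.38 (SE 0.177, adjusted *P*=0.108). The ranges overlapped. The higher mean was carried by the mutant embryos 4 and 5, and without them the log2 change was 0.06 (adjusted *P*=0.721). It was called without mutant embryo 1 of E10.0 (adjusted *P*=0.0358), mutant embryo 3 of E10.0 (0.0103) or mutant embryo 1 of E10.5 (0.0917). At E10.5 its means were 34.2 ± 3.24 and 40.8 ± 3.10 CPM in wild type and mutants, without overlap (log2 change 0.26, SE 0.092, adjusted *P*=0.563).

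The means of *Sall1* at E10.5 were 82.3 ± 2.70 and 99.6 ± 3.77 CPM in wild type and mutants, and all 4 mutants exceeded all 3 wild-type embryos. The log2 change of 0.27 (SE 0.0379) had an adjusted *P* of 0.192 and was 0.25 without mutant embryos 4 and 5 (adjusted *P*=0.167). It passed when the E10.5 embryos were fitted apart from the E10.0 embryos (adjusted *P*=0.0246) or when mutant embryo 3 of E10.0, which adds only to the estimate of the spread, was left out (0.0492). At E10.0 the means were 49.4 ± 3.15 and 54.4 ± 8.72 CPM and the ranges overlapped (0.14 on the log2 scale, adjusted *P*=0.537). There too embryos 4 and 5 were the highest, at 60.8 to 61.3 CPM against 42.7 to 52.7 CPM in the other 2 mutants, and without them the log2 change was −0.03.

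**Figure D3:**
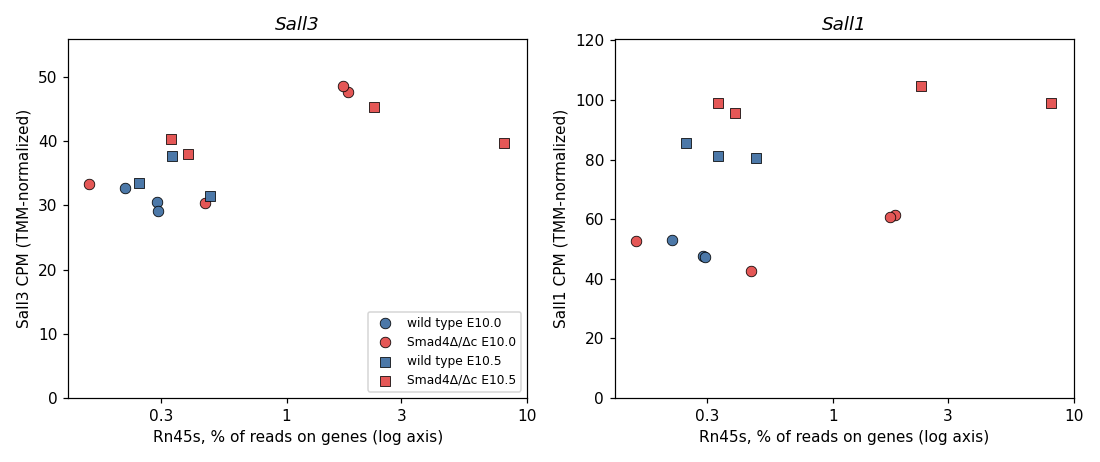
*Sall3* (left) and *Sall1* (right) in TMM-normalized CPM against the share of reads taken by *Rn45s*, in % on a log axis, 1 point per embryo with circles for E10.0 and squares for E10.5. The 4 mutant embryos at 1.72% or more include the 2 highest *Sall3* levels, 47.7 and 48.6 CPM. The E10.5 mutant with the largest share, 8.05%, had 39.7 CPM of *Sall3*, within the 38.0 to 40.3 CPM of E10.5 mutants 1 and 2. The part of this feature in the levels was not tested.

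*Zbtb16* averaged 37.8 ± 1.95 and 43.8 ± 3.70 CPM in wild type and mutants at E10.0, without overlap (log2 change 0.21, SE 0.071, adjusted *P*=0.304). At E10.5 it averaged 29.5 ± 4.99 and 36.7 ± 3.39 CPM. These ranges overlapped, because wild-type embryo 1 had 35.3 CPM and the other 2 had 26.6 to 26.7 CPM. The log2 change of 0.31 (SE 0.146) had an adjusted *P* of 0.139. It was called without wild-type embryo 1 of E10.5 (adjusted *P*=0.00608), without mutant embryo 4 of E10.5 (0.0921) or without mutant embryos 4 and 5 of both stages (log2 change 0.38, adjusted *P*=0.0537). At E10.0 the log2 change was 0.17 without mutant embryos 4 and 5 (adjusted *P*=0.327).

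*Sall2* and *Sall4* had the smallest differences between genotypes. The log2 change of *Sall2* was −0.01 at E10.0 (SE 0.0814, adjusted *P*=0.966) and 0.05 at E10.5 (adjusted *P*=0.948). For *Sall4* it was 0.04 at E10.0 (SE 0.0794, adjusted *P*=0.911) and 0.03 at E10.5 (SE 0.14, adjusted *P*=0.985). Genotypes overlapped in all 4 of these comparisons. Mutants also had more signal of the 3 mesothelium and body wall markers at E10.0, with 7.94 to 18.3 CPM in sum against 1.08 to 2.64 CPM, and less at E10.5, with 0.586 to 2.38 CPM against 2.91 to 5.49 CPM. Of the 3 macrophage markers 2 were called higher in mutants at E10.0, where their sum was 4.92 to 6.42 CPM against 1.72 to 3.93 CPM. The part of either list in the levels of the 5 genes was not tested.

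The change between genotypes did not pass a test of difference between the stages for any of the 5 genes. By edgeR's quasi-likelihood test of the interaction, 0 of 5 were called, where 0.186% of all genes were, and none had an unadjusted *P* under 0.05. The difference of log2 changes, E10.5 minus E10.0, was 0.14 for *Sall1* (SE 0.135), 0.06 for *Sall2* (SE 0.0949), −0.12 for *Sall3* (SE 0.200), −0.00 for *Sall4* (SE 0.161) and 0.10 for *Zbtb16* (SE 0.162), with adjusted *P* of 0.957 to 0.997. DESeq2 and the other alternatives called none either.

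The make-up of *Sall* transcripts differed between the stages. *Sall1* made up 20.5% to 21.7% of the length-scaled *Sall* signal of a wild-type embryo at E10.0 and 30.0% to 33.8% at E10.5. In mutants its share was 19.3% to 23.3% and then 35.0% to 35.7%. *Sall4* moved the other way, from 22.7–26.6% to 13.9–17.2% in wild type and from 22.9–25.1% to 13.01–15.15% in mutants. *Sall2* held a mean of 44.3% and 42.4% of the signal in wild type and 41.8% and 39.7% in mutants, and *Sall3* between 9.82% and 13.8% in any embryo. The ratio of *Sall4* to *Sall1* per kb, chosen after their values were seen and therefore given without a test, was 1.17 ± 0.0827 in wild type and 1.10 ± 0.120 in mutants at E10.0. It was 0.472 ± 0.0875 and 0.399 ± 0.0243 at E10.5.

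**Figure D4:**
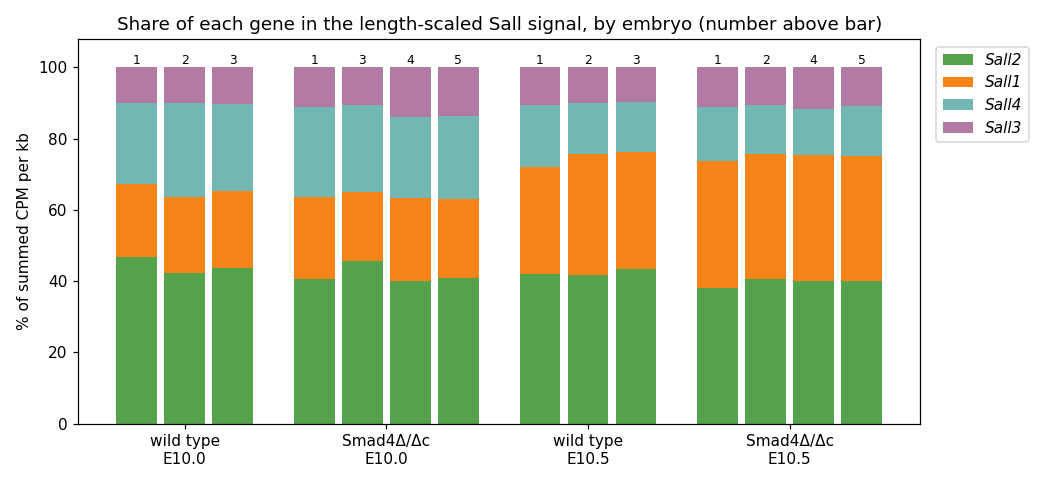
Share of each *Sall* gene in the summed CPM per kb of the 4 *Sall* genes (vertical axis, %), 1 bar per embryo with its number above. *Sall1* takes at most 23.3% of the signal in the E10.0 bars and at least 30.0% in the E10.5 bars, while *Sall4* takes at least 22.7% and at most 17.2%.

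The genes whose profile over the 14 embryos was most like each member were found by the root mean square difference of log2(CPM + 1), each gene taken relative to its own mean. These distances are descriptions over embryos that share stage, genotype and library. For *Sall1* (SD 0.452) the nearest were *Ntf3*, which encodes the neurotrophin NT-3 (0.0893), *Lrig3* (0.112) and *Rasl11b* (0.119). *Ntf3* went from 4.43 ± 0.183 CPM in wild type at E10.0 to 8.13 ± 0.340 at E10.5. For *Sall4* (SD 0.316) they were *Hoxd9* (0.106), *Trim71* (0.117), an RNA-binding protein of early progenitors, and *Gja3* (0.120). *Hoxd9*, a gene of the *HoxD* cluster, had 127 ± 8.78 CPM in wild type at E10.0 and 81.1 ± 2.93 at E10.5. For *Zbtb16* (SD 0.240) they were *Gpc5* (0.119), *Leprel1* (0.123) and *Plcl2* (0.124), and for *Sall3* (SD 0.243) *Slit3* (0.109), *Myo10* (0.112) and *1110012J17Rik* (0.116). The added 1 shrinks the log2 changes of genes at low levels, such as *Gja3* and *Gpc5* with means of 2.03 and 2.70 CPM. *Sall2* varied so little (SD 0.0960) that its nearest, *Plin2* (0.0478), *Zfp629* (0.0481) and *Ift140* (0.0497), were other genes with small spread. Among the members themselves, *Sall2* and *Sall3* (0.195) and *Sall4* and *Zbtb16* (0.199) were the nearest pairs and *Sall1* and *Sall4* (0.705) the farthest.

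Limb genes placed upstream, beside or downstream of the 5 genes were read as a list of 24, all of them tested. In wild type 6 were called higher and 4 lower at E10.5 than at E10.0, where 10.1% of all genes were called, and the median log2 change was −0.11 against −0.01 over all genes. In mutants 9 were higher and 7 lower, where 19.2% of all genes were called (median −0.04 against −0.01). *Hoxa13*, a gene of the distal bud, went from 0.219 ± 0.0553 to 2.78 ± 0.529 CPM in wild type and from 0.118 ± 0.0898 to 2.81 ± 0.527 CPM in mutants. Its E10.0 levels rest on few reads. The log2 change of *Hoxd12* was 1.37 in wild type and 1.66 in mutants, and that of *Hoxd9* was −0.65 and −0.46. Both are genes of the *HoxD* cluster, with *Hoxd12* nearer to its 5′ end. When mutant embryos 4 and 5 were left out, 15 of the 24 were called in wild type and 14 in mutants, where 14.9% and 17.5% of all genes were.

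Between genotypes, 1 of these 24 limb genes was higher and 2 were lower in mutants at E10.0 (median log2 change −0.07 against −0.02 over all genes), and 2 were higher and 1 lower at E10.5 (−0.01 against −0.01). Of all genes, 6.61% and 3.73% were called in these comparisons. With mutant embryos 4 and 5 left out, 7 of the 24 were called at E10.0 (16.4% of all genes) and 4 at E10.5 (4.27%). *Grem1*, an extracellular BMP antagonist, fell from 23.2 ± 4.26 to 9.97 ± 1.16 CPM at E10.0 (log2 change −1.22, adjusted *P*=1.73e-15) and from 28.6 ± 3.16 to 13.4 ± 1.19 CPM at E10.5 (−1.09). *Hoxd13* was higher in mutants, by 0.43 on the log2 scale at E10.0 (adjusted *P*=0.0312) and 0.48 at E10.5 (adjusted *P*=0.0114). The other 2 called genes, named after their values were seen, were *Tbx5*, the activator of *Sall4* in the forelimb, at E10.0 (log2 change −0.31, adjusted *P*=0.0698) and *Tbx4*, the T-box gene of the hindlimb, at E10.5 (0.79, adjusted *P*=0.0955). The quasi-likelihood test called neither, and DESeq2 called both. Without mutant embryos 4 and 5, *Tbx5* stayed called at E10.0 and *Tbx4* was not called at E10.5. At E10.0 *Tbx5* averaged 111 ± 12.4 and 90.0 ± 12.9 CPM in wild type and mutants, where *Sall4* had 60.7 ± 4.37 and 62.2 ± 4.54 CPM.

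Of the NuRD complex, which SALL proteins recruit, 12 of 13 subunit genes were tested. None was called between genotypes at either stage by edgeR's exact test, its quasi-likelihood test or DESeq2. The exact test called 6.61% of all genes in the earlier buds and 3.73% in the later ones. These shares were 4.85% and 2.75% by the quasi-likelihood test, and 8.03% and 4.09% by DESeq2. With 12 genes, 0 calls cannot be told apart from such shares. *Mbd2*, named after its value was seen, had an adjusted *P* of 0.0960 at E10.0 by the exact test. It was not called because its change was 1.17-fold, under 1.2-fold. The unadjusted *P* was under 0.05 for 2 genes at E10.0 and for none at E10.5. Without mutant embryos 4 and 5, 3 of the 12 were called at E10.0, where 16.4% of all genes were. By stage, 1 was called in wild type (up), where 10.1% of all genes were. In mutants 2 were called (1 in each direction), where 19.2% of all genes were. *Chd3*, a remodeler subunit, rose from 125 ± 26.0 to 202 ± 11.5 CPM in wild type (adjusted *P*=3.41e-05) and from 116 ± 17.2 to 200 ± 15.2 CPM in mutants (adjusted *P*=2.79e-09). *Gatad2a* fell by 0.32 on the log2 scale in mutants (adjusted *P*=0.00331). In wild type its log2 change was −0.26 and was not called (adjusted *P*=0.105). The median log2 change of the list lay between −0.02 and 0.01 in the 4 comparisons, and that of all genes between −0.02 and −0.01.

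Of 11 co-repressors and partners of PLZF, 2 were called higher in mutants at E10.0, where 6.61% of all genes were called. These were *Ncor1*, a nuclear co-repressor (1.21-fold, adjusted *P*=0.0608), and *Ep300*, a histone acetyltransferase (1.26-fold, adjusted *P*=0.0688). Without mutant embryos 4 and 5 neither was called, and *Rara*, a retinoic acid receptor named after its value was seen, was the gene of the list that passed. The median log2 change of this list was 0.14, against −0.02 over all genes. Between genotypes at E10.5 and between stages in mutants 0 were called by edgeR's 2 tests and by DESeq2, and 1 and 0 had an unadjusted *P* under 0.05. The exact test called 3.73% and 19.2% of all genes in these 2 comparisons, the quasi-likelihood test 2.75% and 18.6%, and DESeq2 4.09% and 19.6%. By the exact test *Bmi1*, a Polycomb protein, rose between stages in wild type (1.26-fold, adjusted *P*=0.0745), where 10.1% of all genes were called. Of the 37 other *Zbtb* genes, 33 were tested. The exact test called 1 of them between genotypes at E10.0, *Zbtb8a* (log2 change −0.49, adjusted *P*=0.0475), where it called 6.61% of all genes. DESeq2 called *Zbtb42* as well, and 8.03% of all genes. At E10.5 0 were called by edgeR's exact test, its quasi-likelihood test or DESeq2, where 2 had an unadjusted *P* under 0.05. The exact test called 3.73% of all genes there, the quasi-likelihood test 2.75% and DESeq2 4.09%. Without mutant embryos 4 and 5, 8 of the 33 were called at E10.0, where the share of all genes was 16.4%. Between stages 1 of the 33 was called in wild type, *Zbtb7b*, which fell (−0.53, adjusted *P*=0.0913), where 10.1% of all genes were called. In mutants 2 were called, where 19.2% of all genes were. *Zbtb46* fell (−0.27, adjusted *P*=0.0829) and *Zbtb4* rose (0.38, adjusted *P*=0.0891). Without embryos 4 and 5 neither of these 2 was called in mutants. For the interaction 0 genes of the 4 lists were called by the quasi-likelihood test or DESeq2, which called 0.186% and 0.702% of all genes. By the quasi-likelihood test the unadjusted *P* was under 0.05 for 2 of the limb genes, 1 of the *Zbtb* genes and 0 of the other 2 lists.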

How the data were processed

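The authors aligned single-end reads of polyA libraries to mm9 with TopHat2 2.0.13, and counted the uniquely mapped ones by gene symbol with HTSeq, without strand. The deposited values were raw counts for 23284 symbols in 14 embryos, grouped by the stage and genotype of the labels, with 34066930 to 61691258 reads on genes per embryo. Reads in no gene or in several genes were left out of all totals. At this depth counting error was at most 2.95% for the 5 genes. No 2 samples of the same group agreed within sampling noise. The replicates are separate embryos, so that *P* values set differences between groups against the spread between embryos.

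The main design follows the paper's methods, which do not say from which samples the dispersion was estimated. It called more genes between genotypes at both stages than the paper reports. Symbols on X, Y and M were removed, and the remaining 12393 genes that reached 1 CPM in 3 samples or more were tested with edgeR 4.0.16 (R 4.3.3). Libraries were scaled by TMM, the common and then the tag-wise dispersion was estimated from the 14 samples (prior.df 10), and pairs of groups were compared by the exact test with Benjamini-Hochberg adjustment over all tested genes. Calls needed an FDR not above 0.1 and a change of 1.2-fold or more. The interaction of stage and genotype was tested with edgeR's quasi-likelihood test at the same FDR. Standard errors come from replicate variances of log2(CPM + 1). The tests were tried on simulated counts first. Lengths, exons and positions are those of GENCODE M1 on NCBIM37 (mm9).

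Alternatives were the quasi-likelihood test, with and without a replicate block, DESeq2 1.42.0, RLE normalization, no filter, filterByExpr, symbols on X, Y and M kept, groups fitted apart, mutant samples 4 and 5 left out, and each sample left out in turn. The genes named were the 5 members, *Smad4*, the 2 called genes with the smallest *P* of each list and comparison, the 3 genes most like each member and the cell type markers. The members and the lists were chosen with earlier results of these data known. Figures were drawn with matplotlib 3.10.9.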

Additional observations from a re-analysis of the deposited data

How the results depend on the processing

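*Sall1* and *Sall4* kept their calls and directions between stages under every alternative that was run. The number of the 5 genes called between genotypes was 0 at E10.0 and became 1 with DESeq2, RLE normalization or filterByExpr (*Sall3* each time). At E10.5 it was 0 and became 1 with DESeq2 (*Zbtb16*), with stages fitted apart (*Sall1*) or without mutant samples 4 and 5 (*Zbtb16*). Leaving out 1 embryo at a time gave 0 to 1 genes between genotypes at either stage, 2 to 3 between stages in wild type and in mutants, and 0 to 0 for the interaction. Log2 changes near 0 turned sign. *Sall2* at E10.0 became 0.0059 with DESeq2, 0.0060 with RLE, 0.0067 with no filter and 0.0092 with filterByExpr. *Sall1* and *Sall4* at E10.0 became −0.0326 and −0.0291 without mutant samples 4 and 5, and the interaction became 0.14 for *Sall3* and 0.0790 for *Sall4*. Leaving out 1 embryo gave −0.0689 to 0.0424 for *Sall2* and −0.0236 to 0.0783 for *Sall4* at E10.0, −0.0480 to 0.19 for *Sall4* at E10.5, −0.0806 to 0.14 for *Sall3* between stages in mutants and −0.0925 to 0.14 for the interaction of *Sall4*. The cause of these moves was not tested. Wild-type and mutant samples with the same replicate number were not more alike than the others. The mean correlation of their deviations was −0.0814 over 4 pairs (−0.26 to 0.17), against 0.016 over 20 other pairs. So few pairs cannot exclude a pairing, and mutant samples 4 and 5 have no wild-type sample of the same number. With the replicate block in the quasi-likelihood test the log2 change became −0.0232 (E10.0) and −0.0242 (E10.5) for *Sall4* and −0.0091 for *Sall2* at E10.5, and *Zbtb16* was called between stages in mutants (−0.29, adjusted *P*=0.0408). Over all genes, 819 were called at E10.0, against 2018 without mutant samples 4 and 5, 494 without mutant embryo 5 of E10.0 and 254 without wild-type embryo 3 of E10.0. The quasi-likelihood test called 601 without and 1961 with the block. At E10.5 462 were called, against 286 without wild-type embryo 2 of E10.5, and the quasi-likelihood test called 341 without and 280 with the block. Between stages in wild type 1256 were called, against 1932 with genotypes fitted apart, 484 and 827 without wild-type embryos 2 and 3 of E10.0, and 823 and 512 without wild-type embryos 2 and 3 of E10.5. For the interaction 23 were called, against 87 with DESeq2, 39 with no filter, 41 with filterByExpr, 6 without mutant samples 4 and 5, and 7 to 34 with 1 embryo left out. The order of levels was the same with the longest transcript as the length.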
